A study of Mus musculus with 4 samples.

Results

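The ubiquitin ligase gene *Rnf43*, its relative *Znrf3*, the transcription factor genes *Tcf7* and *Lef1*, and 5 core genes of Wnt signaling (*Lrp6*, *Axin2*, *Apc*, *Gsk3b* and *Ctnnb1*) were examined in the transcriptome of regulatory T (Treg) cells with and without the transferrin receptor. These 9 genes were taken by name from the 47729 rows of the count table. They were chosen by name with the differences between these same libraries already known. The values of the 9 genes are therefore given as a description, and calls on them are not read as a test.

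The study compared Treg cells sorted as CD4+CD25+YFP+ from female C57BL/6 mice, with 2 libraries in each group. WT mice were Tfrc +/+ Foxp3 YFP-Cre/+, and the TfR1-deficient group was Tfrc fl/fl Foxp3 YFP-Cre/+. *Tfrc* encodes TfR1, the receptor by which cells take up transferrin-bound iron, and the comparison asked how the Treg cell transcriptome depends on it. The labels give the tissue as spleen, while the paper's legend for this RNA-seq names spleens and lymph nodes. Both groups carried the Cre and YFP transgene in 1 copy at *Foxp3*. *Foxp3* lies on the X chromosome, so in these heterozygous females the transgene is active in only a part of the Treg cells, which the YFP gate selects, and the other Treg cells of the same mice kept *Tfrc*. The same legend describes 2 biological replicates, but no source used here says how many mice went into each library. The p-values measure only the spread between these libraries.

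Wnt ligands bind a Frizzled receptor together with Lrp5 or Lrp6, and this stops a destruction complex built on Axin and Apc, in which Gsk3b phosphorylates β-catenin (*Ctnnb1*) for degradation. β-catenin then enters the nucleus and acts with factors of the TCF/LEF family, of which TCF1 (*Tcf7*) and LEF1 (*Lef1*) are the main members in T cells. Rnf43 and Znrf3 are membrane ubiquitin ligases that remove Frizzled receptors from the cell surface, and *Rnf43*, *Znrf3* and *Axin2* are themselves known target genes that feed back on the pathway in many tissues. In T cells, TCF1 and LEF1 mark naive and central states, and they also act without β-catenin.

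The libraries held between 10841939 and 17278448 counts. *Tfrc* itself was at 50.8 and 54.1 CPM (counts scaled to a fixed library size, with TMM factors) in WT and at 56.1 and 48.3 CPM in those labelled TfR1-deficient, and this gene-level count was no lower under the second label. Reads from exons outside the deleted part would still be counted, and which exons are deleted is not given in the sources used here. By flow cytometry, the paper reports loss of TfR1 from splenic Treg cells of Tfrc fl/fl Foxp3 YFP-Cre/y mice. By mass spectrometry, it reports less iron in CD25+YFP+ cells of the female TfR1-deficient genotype than of the WT genotype. *Foxp3*, which defines Treg cells, was at 194 and 130 CPM in WT and at 122 and 114 CPM in those labelled TfR1-deficient, and all 6 Treg markers were detected. Each group also held 1 library with more macrophage and proliferation RNA. The summed level of 10 macrophage markers was 704 and 23.6 CPM in WT replicates 1 and 2 and 30.02 and 2429 CPM in replicates 1 and 2 labelled TfR1-deficient, and that of 5 proliferation markers was 582, 149, 150 and 498 CPM in the same order. WT replicate 1 and TfR1-deficient replicate 2 are therefore named below wherever a gene stands apart in them. In RNA from a bulk sort, fewer cells that express a gene and less RNA of it per cell cannot be told apart.

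*Rnf43* differed most among the 9 genes. Its level was 44.4 and 40.5 CPM in WT (543 and 432 counts) and 15.8 and 16.0 CPM in those labelled TfR1-deficient (275 and 219 counts). Both libraries labelled TfR1-deficient lay far below both WT libraries, and the replicates of each group were close to each other. The means were 42.5 ± 2.80 CPM in WT and 15.9 ± 0.0992 CPM in the other group (SD, n = 2), a 2.67-fold lower level and a log2 fold change of -1.42 with a standard error of 0.19. Among the 12536 genes tested, this was the fold change of rank 100 from the lowest. The log2 fold change was -1.35 between the 2 libraries with few macrophage transcripts and lay between -1.48 and -1.34 with each library left out. By the rule of an unadjusted p under 0.05 and a log2 fold change of at least 0.5 in size, 1 of the 9 genes (*Rnf43*) was called lower, where 2.48% of all tested genes were, and 0 were called higher, where 1.60% of all tested genes were. Since the genes were chosen with these values known, these shares are background only and nothing is read from the count. With p-values adjusted by the Benjamini-Hochberg method, edgeR's quasi-likelihood test called 0 of the 9 and 0 of the 12536 genes, or 0%, at 200 genes higher and 311 lower unadjusted. On the same genes and with the same thresholds, DESeq2 called 7 genes higher (0.0558%) and 37 lower (0.295%) after adjustment. Of the 9 it called 1, *Rnf43*, lower. This gene was chosen with its difference known, so nothing is read from this call either.

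**Figure D1:**
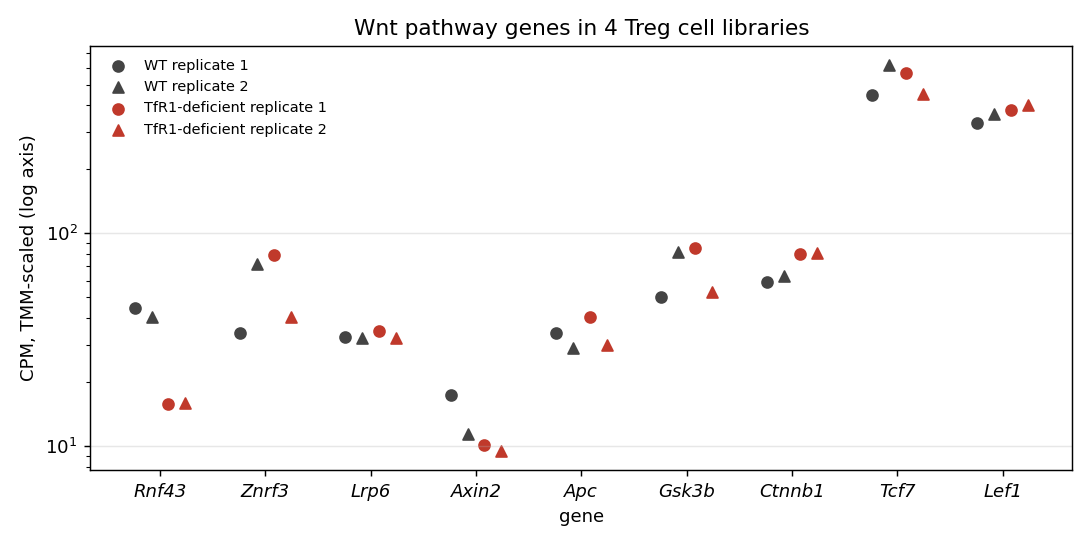
TMM-scaled CPM (log axis) of the 9 genes in each library, with WT in gray, TfR1-deficient in red, replicate 1 as circles and replicate 2 as triangles. *Rnf43* lies near 16 CPM in both red libraries and above 40 CPM in both gray ones, while *Znrf3*, *Gsk3b* and *Tcf7* split by library within each group.

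The genes lie on 6 chromosomes, and 4 of the 9 (*Rnf43*, *Znrf3*, *Axin2* and *Tcf7*) are on chromosome 11. In the RefSeq gene table of GRCm38.p6, *Rnf43* spans chr11:87663087-87735539, *Znrf3* chr11:5276329-5444847, *Axin2* chr11:108917828-108950783 and *Tcf7* chr11:52246527-52283383. *Ctnnb1* spans chr9:120933400-120960507, *Lef1* chr3:131110297-131224357, *Lrp6* chr6:134446476-134566913 and *Gsk3b* chr16:38089001-38246084.

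The RefSeq promoter table of GRCm38.p6 held 12 windows for 6 of the genes, each from 250 bases before to 50 bases after a transcript start. *Znrf3*, *Lrp6* and *Apc* were not in it. The TCF/LEF motif CTTTGAT, searched on both strands, was in 0 of the 12 windows and in 3.73% of all 32851 windows. For the core of the hypoxia response element, only the letters ACGTG were searched. They were in 1 of the 12 windows, a window of *Lef1*, and in 19.6% of all windows. The variant GCGTG was not searched, and it occurs in the 250 bases before the first annotated start of *Rnf43*. The lack of ACGTG in the *Rnf43* windows therefore does not show that they lack the element. As *Rnf43* carries the largest difference, the 250 bases before its first annotated start (chr11:87662837-87663086, plus strand, GRCm38.p6) are shown with CG dinucleotides in capitals, followed by the *Lef1* match (chr3:131156204-131156232, plus strand) with the hypoxia core in capitals, which begins 78 bases before an internal start of *Lef1*.
Rnf43: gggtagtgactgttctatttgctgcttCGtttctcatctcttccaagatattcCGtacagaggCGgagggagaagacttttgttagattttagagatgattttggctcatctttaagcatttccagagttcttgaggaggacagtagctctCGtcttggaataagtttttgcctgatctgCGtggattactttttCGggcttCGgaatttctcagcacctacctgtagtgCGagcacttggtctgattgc
Lef1: ccttcatctctcACGTGaccgagattgca

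The *Rnf43* stretch holds 8 CG dinucleotides and is 44.4% G and C, beside medians of 6 and 52.4% over all windows. The stretch before the second annotated start of *Rnf43* holds 2 and is 45.2% G and C. The same stretch of *Axin2* holds 24 and is 69.2% G and C, and those of *Ctnnb1* hold 35 and 43. The *Lef1* match lies in CACGTG, which reads the same on both strands, and therefore counts on both. A match or its absence describes these letters only, and no binding was measured.

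*Znrf3*, which encodes the ligase most closely related to Rnf43, did not follow *Rnf43*. It was at 34.0 and 72.0 CPM in WT and at 78.7 and 40.6 CPM in those labelled TfR1-deficient. The groups overlapped, and the low values were those of WT replicate 1 and TfR1-deficient replicate 2, the libraries with more macrophage and proliferation RNA. The part of those cells in this pattern was not tested. The log2 fold change of 0.17 had a standard error of 0.47, and its sign turned to -0.26 without WT replicate 1 and to -0.38 without TfR1-deficient replicate 1. For each read of *Znrf3*, the WT libraries held 1.31 and 0.563 reads of *Rnf43*, and the libraries labelled TfR1-deficient held 0.201 and 0.394. This ratio needs no scaling between libraries, and neither library labelled TfR1-deficient reached the lower WT value.

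The coreceptor gene *Lrp6* varied least. It was at 32.7 and 32.1 CPM in WT and at 34.9 and 32.3 CPM in those labelled TfR1-deficient, and the groups overlapped. Its log2 fold change was 0.05 with a standard error of 0.17.

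Of the destruction complex, the scaffold gene *Axin2* was lower in both libraries labelled TfR1-deficient and *Apc* and *Gsk3b* overlapped between the groups. *Axin2* was at 17.4 and 11.4 CPM in WT (212 and 122 counts) and at 10.1 and 9.49 CPM in those labelled TfR1-deficient (176 and 130 counts). The groups did not overlap, but WT replicate 1 was the only library that stood clearly above the others. Its means of 14.4 ± 4.18 CPM and 9.82 ± 0.461 CPM (SD, n = 2) gave a log2 fold change of -0.55 with a standard error of 0.31, which became -0.21 without WT replicate 1 and -0.17 between the 2 libraries with few macrophage transcripts.

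*Apc*, which encodes the other scaffold of the complex, was at 34.1 and 29.1 CPM in WT and at 40.2 and 29.9 CPM in those labelled TfR1-deficient. Only TfR1-deficient replicate 1 stood above the rest, and the log2 fold change of 0.15 (standard error 0.23) became -0.08 without that library. *Gsk3b*, the kinase gene, was at 50.2 and 82.1 CPM in WT and at 84.9 and 52.9 CPM in those labelled TfR1-deficient. As for *Znrf3*, WT replicate 1 and TfR1-deficient replicate 2 were the low libraries of their groups, and the log2 fold change of 0.06 (standard error 0.33) moved between -0.32 and 0.46 with each library left out, with negative values without WT replicate 1 or TfR1-deficient replicate 1. *Gsk3b* lies on chromosome 16 at 5.46 Mb from *Tfrc* (GRCm38.p6), so it is linked to the floxed allele.

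*Ctnnb1*, which encodes β-catenin, was higher in both libraries labelled TfR1-deficient. It was at 58.9 and 62.9 CPM in WT and at 79.6 and 80.7 CPM in those labelled TfR1-deficient. The groups did not overlap, and the gap between them was wider than the difference between replicates of either group. The means were 60.9 ± 2.86 and 80.2 ± 0.819 CPM (SD, n = 2), and the log2 fold change of 0.40 had a standard error of 0.14 and stayed between 0.34 and 0.45 in all 12 alternatives. For each read of *Ctnnb1*, the WT libraries held 0.295 and 0.182 reads of *Axin2* and the libraries labelled TfR1-deficient held 0.127 and 0.118. *Axin2* was lower and *Ctnnb1* higher in both of the latter, so this ratio could not overlap and adds nothing to the values of the single genes. The count of β-catenin mRNA carries no information on the phosphorylation or degradation of the protein.

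*Tcf7* and *Lef1*, the TCF/LEF genes of T cells, were high in all 4 libraries and had small fold changes. *Tcf7* was at 446 and 616 CPM in WT and at 568 and 453 CPM in those labelled TfR1-deficient. The groups overlapped, WT replicate 1 and TfR1-deficient replicate 2 were again the low libraries, and the log2 fold change was -0.06 with a standard error of 0.22. Its sign turned to 0.19 without WT replicate 2 and to 0.09 without TfR1-deficient replicate 2.

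*Lef1* was at 331 and 363 CPM in WT and at 380 and 401 CPM in those labelled TfR1-deficient. Both libraries labelled TfR1-deficient were above both WT libraries, by a small margin between WT replicate 2 and TfR1-deficient replicate 1. The means were 346.8 ± 22.8 and 390.5 ± 15.0 CPM (SD, n = 2), with a log2 fold change of 0.17 and a standard error of 0.14. The 4 libraries held 1.35, 1.70, 1.495 and 1.13 reads of *Tcf7* for each read of *Lef1*, the first 2 of these being WT, so the ratio overlapped between the groups.

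**Figure D2:**
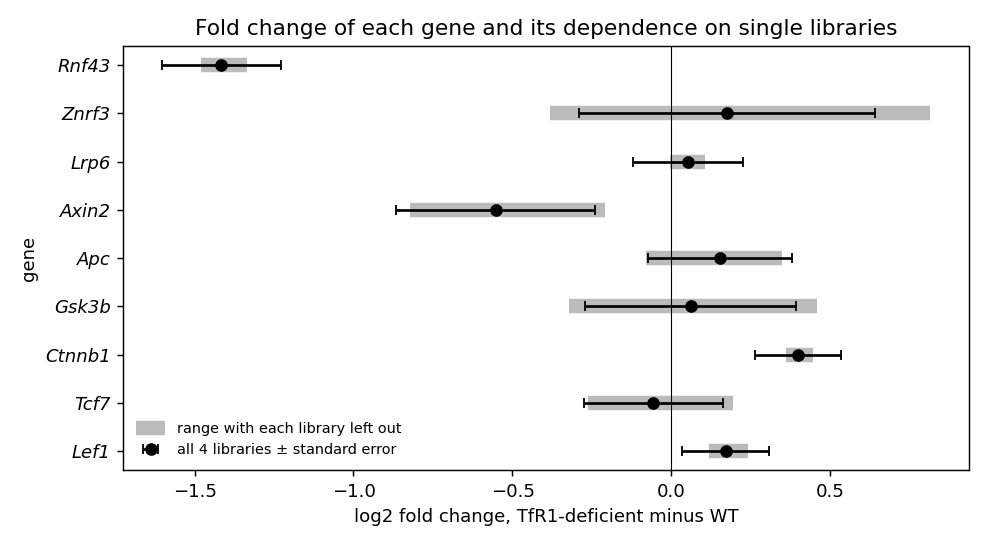
Log2 fold change (TfR1-deficient minus WT) of the 9 genes. Points and bars give the value from all 4 libraries with its standard error, and gray bands give the range of the value when each library is left out in turn. The band of *Rnf43* runs from -1.48 to -1.34 and that of *Ctnnb1* stays above 0, while those of *Znrf3*, *Lrp6*, *Apc*, *Gsk3b* and *Tcf7* cross 0.

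By the order of the libraries, 2 of the 9 genes (*Ctnnb1* and *Lef1*) had both libraries labelled TfR1-deficient above both of WT, 2 (*Rnf43* and *Axin2*) had both below and 5 overlapped. Of all tested genes, 16.0% had both above and 18.9% both below. With 2 libraries against 2, an exact permutation test cannot give a two-sided p below 0.333 for any single gene.

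To compare the genes with each other, CPM were divided by exon length in kilobases, with the exons of all annotated transcripts merged. *Tcf7* had the highest mean level at 187 CPM per kb, followed by *Lef1* at 42.6 and *Ctnnb1* at 13.8. The ranges over the 4 libraries did not overlap between these neighbours in the order, nor between *Ctnnb1* and the next gene, *Znrf3*. *Znrf3* at 7.14, *Gsk3b* at 6.87, *Rnf43* at 4.45 and *Lrp6* at 3.36 CPM per kb followed, and each of these overlapped with its neighbour among them. The place of *Rnf43* differed by group, since it was above *Lrp6* in both WT libraries (6.78 and 6.17 against 3.33 and 3.26 CPM per kb) and below it in both libraries labelled TfR1-deficient (2.42 and 2.44 against 3.56 and 3.29 CPM per kb). *Axin2* at 2.20 and *Apc* at 2.11 CPM per kb were the lowest, overlapped with each other and lay below the range of *Lrp6*. *Rnf43* spanned the widest range for its level, from 2.42 to 6.78 CPM per kb, a ratio of 2.80 between the highest and the lowest library.

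**Figure D3:**
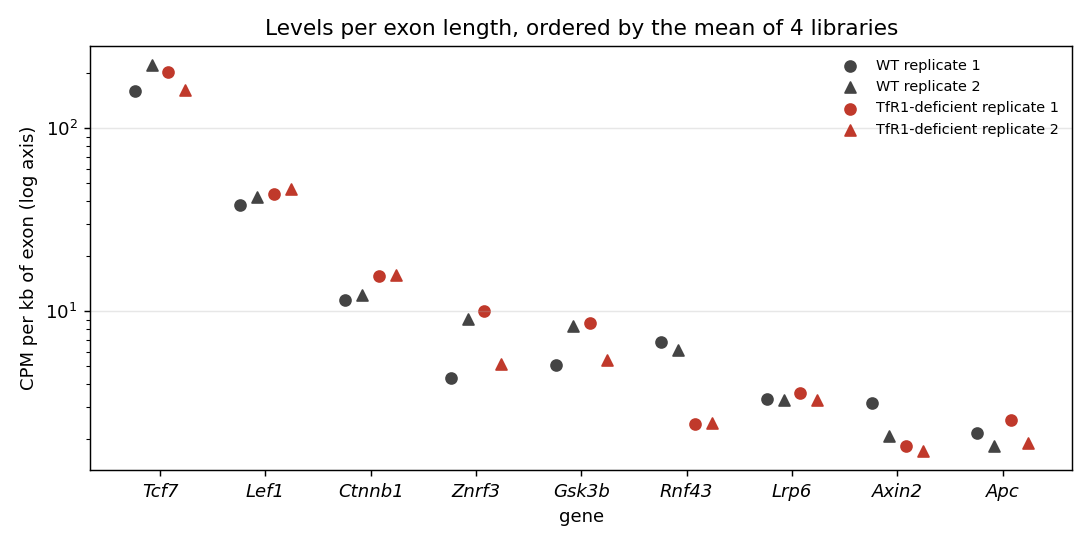
CPM per kb of merged exon length (log axis) of the 9 genes, ordered by the mean of the 4 libraries, with symbols for each library (WT gray, TfR1-deficient red, replicate 1 circles, replicate 2 triangles). *Tcf7* and *Lef1* lie above every other gene in all libraries, at means of 187 and 42.6 CPM per kb.

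Likeness of profiles was read as the root mean square difference of centered log2 CPM over the 4 libraries. The closest gene to *Rnf43* was *Ttn*, which encodes the muscle protein titin, with a difference of 0.0725. Its levels were 32.9, 32.8, 13.5 and 12.6 CPM (WT first). Next came ENSMUSG00000102323, which has no symbol in the tables used, at 0.0920, and *Ptpn5*, a tyrosine phosphatase gene, at 0.119. Within 0.1 lay 2 genes for *Rnf43*, 542 for *Tcf7* and 843 for *Lef1*. A gene with a large fold change has fewer genes within a fixed distance. These counts therefore add nothing to the fold change of *Rnf43*, which was known when it was chosen. The closest genes to *Tcf7* were *Alkbh6*, *Kcnip2* and *Ube2w*, and those to *Lef1* were *Mettl8*, *Dtnb* and *Gtf2f1*, all at differences under 0.02.

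The other genes of the pathway were taken from a list of 123 genes ordered by role. The list was chosen with earlier results of these data known, so its shares and median are description only. Of these, 92 had a count in at least 1 library and 55 were high enough to be tested. By edgeR's quasi-likelihood test, 2 of the 55 were higher and 3 lower at an unadjusted p under 0.05 and a log2 fold change of at least 0.5 in size, and 0 passed after Benjamini-Hochberg adjustment over all tested genes, the smallest adjusted p being 0.911. That is 3.64% higher and 5.45% lower, beside 1.60% and 2.48% of all tested genes. In both libraries labelled TfR1-deficient, 12 genes (21.8%) were above and 11 (20.0%) below both WT libraries, beside 16.0% and 18.9% of all tested genes. The median log2 fold change of the 55 was 0.18, beside 0.01 for all tested genes, and was 0.02 with WT replicate 1 left out and 0.07 with TfR1-deficient replicate 1 left out.

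Ligands and receptors were mostly at the limit of detection. Of 19 Wnt ligand genes, 9 had no count and 2 were tested. *Wnt3* was at 17.2 and 23.3 CPM in WT and at 31.9 and 24.1 CPM in those labelled TfR1-deficient, a log2 fold change of 0.47 that did not pass, and *Wnt10a* stayed under 1 CPM in every library. *Wls*, needed for Wnt secretion, was at 72.8 and 74.1 CPM in WT and at 56.1 and 51.3 CPM in those labelled TfR1-deficient, a log2 fold change of -0.45 with a standard error of 0.14, which lies under the minimum change. None of the 7 genes for R-spondins and their Lgr receptors, which hold Rnf43 and Znrf3 in check, was high enough to be tested, and the highest value of any of them in any library was 0.246 CPM. A count of 0 over the 4 libraries allows up to 0.0556 CPM, for counting error only.

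Of 15 receptor genes, *Fzd6* was the only Frizzled gene tested, at 2.05 and 0.469 CPM in WT and at 0.807 and 0.511 CPM in those labelled TfR1-deficient. *Lrp5*, the coreceptor gene related to *Lrp6*, was at 1.06 and 0.656 CPM in WT (13 and 7 counts). It was at 2.59 and 3.50 CPM in those labelled TfR1-deficient (45 and 48 counts). On the WT libraries alone *Lrp5* would not have passed the count filter, and DESeq2 gave it no adjusted p. Its log2 fold change of 1.81 had a standard error of 0.53 (edgeR, unadjusted p = 0.019, adjusted p = 0.911), and the unadjusted call was lost when either second replicate was left out, at log2 fold changes of 1.51 without that of WT and 1.57 without the other.

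Among 4 tested inhibitors, *Sostdc1*, a secreted BMP and Wnt antagonist, had 47 and 16 counts in WT and 3 and 0 counts in those labelled TfR1-deficient. The WT to TfR1-deficient ratio was 28.5 with a 95% counting interval from 9.31 to 142. This interval pools the counts of each group and leaves out the spread between libraries. The edgeR test gave an unadjusted p of 0.0087 and an adjusted p of 0.911, on counts that passed the filter only through the WT libraries. The fitted log2 fold change, which depends on the prior count, was -4.71, and it was -3.88 without WT replicate 1, where the unadjusted call was lost, -3.89 without TfR1-deficient replicate 2 and -8.04 without TfR1-deficient replicate 1. With at least 10 counts required in every library, *Sostdc1* and *Lrp5* were not tested, and 1 gene of the list was higher and 2 lower. *Kremen1*, a Dickkopf receptor gene, overlapped between the groups at 9.66 and 18.0 CPM in WT and 17.2 and 11.8 CPM in those labelled TfR1-deficient. *Kremen2* was at 1.56 and 2.44 CPM in WT and at 0.807 and 0.949 CPM in those labelled TfR1-deficient, without overlap, but did not pass.

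In the cytoplasm, 0 of 10 tested relay genes and 0 of 12 tested genes of the destruction complex and its turnover passed at the unadjusted threshold. The relay gene with the highest CPM, *Csnk1d*, a casein kinase gene, was at 175 and 163 CPM in WT and at 148 and 146 CPM in those labelled TfR1-deficient. *Csnk1g1* was between 35.3 and 56.1 CPM and overlapped. *Ppp2r1a*, a scaffold of protein phosphatase 2A, was at 322 and 251 CPM in WT and at 202 and 239 CPM in those labelled TfR1-deficient, and *Csnk1a1*, the priming kinase for β-catenin, overlapped between 143 and 201 CPM. The median log2 fold changes of the relay and destruction complex groups were 0.23 and 0.22, beside 0.01 for all tested genes. These medians by role were not computed with libraries left out.

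Among 18 tested nuclear genes, 1 was higher and 1 lower. *Tcf7l2*, another TCF/LEF gene, was at 10.3 and 7.22 CPM in WT and at 14.6 and 33.3 CPM in those labelled TfR1-deficient, with a log2 fold change of 1.45 and a standard error of 0.47 (edgeR, unadjusted p = 0.026, adjusted p = 0.911). Its highest value was in the library with the most macrophage RNA, and without that library its log2 fold change was 0.73 and the call was lost, as it was without WT replicate 2. *Bcl9l*, a β-catenin coactivator gene, was at 58.5 and 55.0 CPM in WT and at 38.2 and 36.4 CPM in those labelled TfR1-deficient, with a log2 fold change of -0.61 and a standard error of 0.15 (edgeR, unadjusted p = 0.0091, adjusted p = 0.911). With each library left out in turn, it lost the call without TfR1-deficient replicate 2, at a log2 fold change of -0.58, and kept it without each of the other libraries. The acetyltransferase gene *Crebbp* overlapped between 189.99 and 348 CPM, with its low values in WT replicate 1 and TfR1-deficient replicate 2 as for *Tcf7*, and *Tbl1x*, a corepressor gene, was at 101 and 103 CPM in WT and at 129 and 111 CPM in those labelled TfR1-deficient.

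Of 6 tested target genes, 1 was lower and 0 were higher. *Cd44*, an adhesion receptor gene that is also high in effector T cells, was at 132 and 117 CPM in WT and at 65.4 and 99.2 CPM in those labelled TfR1-deficient, with a log2 fold change of -0.60 and a standard error of 0.23 (edgeR, unadjusted p = 0.049, adjusted p = 0.911). The call was lost without WT replicate 1, WT replicate 2 or TfR1-deficient replicate 1. *Myc*, the proliferation regulator, was at 481 and 436 CPM in WT and at 386 and 367 CPM in those labelled TfR1-deficient, a log2 fold change of -0.28 that did not pass.

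**Figure D4:**
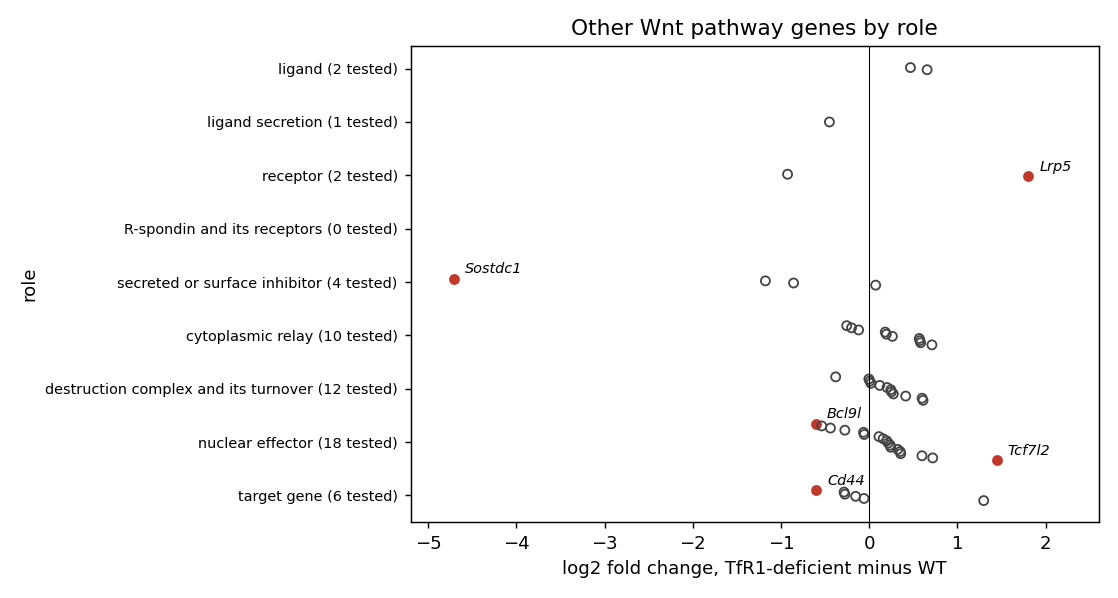
Log2 fold change (TfR1-deficient minus WT) of the 55 tested genes of the Wnt list, in rows by role. Each circle is a gene, and filled red circles with names are the 5 genes past an unadjusted p under 0.05 and a log2 fold change of at least 0.5 in size, of which *Lrp5* and *Tcf7l2* lie to the right of 0 and *Sostdc1*, *Bcl9l* and *Cd44* to the left.

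Genes that follow TCF1 in T cells were read beside *Tcf7* and *Lef1*. Of 15 genes that are high in T cells with high TCF1, all were tested, 1 was higher and 1 lower at the unadjusted threshold, and 5 (33.3%) were above both WT libraries in both libraries labelled TfR1-deficient, beside 16.0% of all tested genes. Their median log2 fold change was 0.15. The list was chosen with earlier results of these data known, so no excess over all tested genes is read from these shares. *Satb1*, a chromatin organizer gene, was at 213 and 206 CPM in WT and at 305 and 294 CPM in those labelled TfR1-deficient, with a log2 fold change of 0.52 and a standard error of 0.13 (edgeR, unadjusted p = 0.0102, adjusted p = 0.911). *Cxcr5*, the chemokine receptor of follicular T cells, was at 55.7 and 58.1 CPM in WT and at 24.9 and 29.0 CPM in those labelled TfR1-deficient, with a log2 fold change of -1.08 and a standard error of 0.17 (edgeR, unadjusted p = 0.0012, adjusted p = 0.911). *Cxcr5* kept its unadjusted call with each library left out and had an adjusted p of 0.0044 by DESeq2, while *Satb1* lost its call when WT replicate 2 or TfR1-deficient replicate 1 was left out, at a log2 fold change of 0.49 in both cases. *S1pr1*, a receptor gene for the exit of T cells from lymphoid organs, was at 866 and 949 CPM in WT and at 854 and 1159 CPM in those labelled TfR1-deficient, and overlapped.

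Of 9 genes that are low in T cells with high TCF1, 5 (55.6%) were below both WT libraries in both libraries labelled TfR1-deficient. Of all tested genes, 18.9% were. The median log2 fold change of the 9 was -0.46. This list, too, was chosen with earlier results of these data known, so its share is description only. The unadjusted call was met by 1 of them, *Irf4*, a transcription factor gene of effector T cells. It was at 61.4 and 29.9 CPM in WT and at 21.3 and 25.2 CPM in those labelled TfR1-deficient, with a log2 fold change of -0.98 and a standard error of 0.37 (edgeR, unadjusted p = 0.045, adjusted p = 0.911). The value rested on WT replicate 1, without which it was -0.35 and not called, and the call was also lost without TfR1-deficient replicate 1. *Il2ra*, which encodes CD25 and was part of the sort, was at 1151 and 1111 CPM in WT and at 1087 and 853 CPM in those labelled TfR1-deficient. *Batf*, a partner of Irf4, was at 55.8 and 45.5 CPM in WT and at 35.0 and 38.8 CPM in those labelled TfR1-deficient. All 3 of these genes were below both WT libraries, and *Il2ra* and *Batf* did not pass.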

How the data were processed

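The transcriptome of sorted Treg cells was read in 4 libraries, 2 WT and 2 labelled TfR1-deficient, grouped by sample title. The authors deposited raw counts per Ensembl gene, as whole numbers without normalization. The submitters' processing notes list Trim Galore 0.6.7, STAR 2.7.9a, featureCounts and mm10, while the paper's methods name mm9, and strand and annotation release are not given in the sources used here. As 14889 identifiers lie past the last one of GENCODE vM1 and the notes name mm10, positions and promoters were taken from RefSeq for GRCm38.p6, and merged exon lengths from GENCODE vM1 by identifier.

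Of 47729 rows, 22368 had a count and 12536 passed filterByExpr. These were scaled by TMM and tested with edgeR 4.0.16 (quasi-likelihood test, model of genotype alone, Benjamini-Hochberg adjustment) in R 4.3.3. Calls needed a p under 0.05 and a log2 fold change of at least 0.5 in size. The standard error of a log2 fold change is its size over the root of the F statistic, and profile likeness used log2 CPM with a prior count of 2. The common biological coefficient of variation was 0.323, so the spread between libraries, not depth, limits most values. In simulated counts for 12191 genes, edgeR recovered 109 of 130 genes with a simulated log2 change of 2 or 3 and 14 of 66 with 1. These numbers hold for the simulated counts only and are not an estimate of recovery in the 4 libraries.

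Named genes were the 9 members, other listed genes past the unadjusted call, the 2 with the highest mean CPM in each role or list, and the 3 closest profiles. The members and lists were chosen with earlier results of these data known. Same-numbered libraries did not deviate together (correlation -0.609), so numbers were not taken as pairs. Replicates differed beyond counting noise (chi-square per degree of freedom 31.2 in WT and 51.1 in the other group). Alternatives were DESeq2 1.42.0, other scaling, filters and minimum changes, a replicate block and omission of each library. Protein sequences were not used here. Of the genes the naming rule selected, 1 is not reported here.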

Additional observations from a re-analysis of the deposited data

How the results depend on the processing

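In all 12 alternatives *Rnf43* and *Axin2* stayed negative and *Ctnnb1* and *Lef1* positive, while *Znrf3*, *Gsk3b* and *Tcf7* changed sign in 2 and *Lrp6* and *Apc* in 1. The *Rnf43* log2 fold change ranged from -1.48 to -1.34 with each library left out and was -1.35 between the 2 libraries with few macrophage transcripts, an alternative chosen after seeing the data. The median of the other Wnt genes was 0.12 there and 0.023 to 0.23 with each library left out. Genes called after adjustment (0 in each direction) became 167 higher and 95 lower with no count filter and 7 higher and 37 lower with DESeq2, and the cause was not tested. Without adjustment, 200 higher and 311 lower became 650 higher with no filter, 91 and 104 at a minimum log2 fold change of 1, and 151 to 268 higher and 140 to 372 lower with each library left out, the lowest count of genes lower being without WT replicate 1. Other Wnt genes higher (2) numbered 1 with at least 10 counts in every library and 1 to 3 with each library left out, and those lower (3) numbered 1 at a minimum of 1 and 1 to 4 with each library left out.

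The replicate block gave 70 genes higher, 141 lower, 1 other Wnt gene higher and 0 after adjustment. A crossed pairing, added after the data were seen, gave 150 higher and 210 lower after adjustment, 596 and 519 without, and 5 other Wnt genes higher. With 3 libraries, the lone sample is assumed to vary like the other group.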
